A study of Mus musculus with 10 samples.

Results

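The Ifit family was represented by 4 genes, Ifit1, Ifit2, Ifit3 and Ifit3b, out of 60676 genes and loci in the count table. They were found by their Ensembl identifiers, which are ENSMUSG00000034459.9, ENSMUSG00000045932.13, ENSMUSG00000074896.4 and ENSMUSG00000062488.10 in that order. The family was chosen by its levels in these libraries and by their differences between groups and lines, which were known beforehand. Its own values are therefore described with their spread and without p-values. Where a member is said to pass the threshold applied to all genes, this is part of the description, and nothing is read from it or from its comparison with the share of all genes. The gene lists set beside the family were also chosen with earlier results of these data known. Their numbers of calls beside the share of all genes are likewise a description.

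Transcripts were measured by sequencing of messenger RNA libraries from 2 cultured mouse tumour lines, the colon adenocarcinoma line MC38 and the melanoma line B16. The cells of all 10 libraries were knocked down for Sdc1 and received 10 ng/ml of interferon gamma (IFNγ) for 24 h. Sdc1 encodes syndecan-1, a transmembrane heparan sulphate proteoglycan. MC38 had 3 groups of 2 libraries each, its knockdown without an added gene, its knockdown given a c30 mutant of Sdc1, and its knockdown given an ect mutant. B16 had 2 such groups, its knockdown without an added gene and its knockdown given wild-type Sdc1. The labels do not define c30 or ect, and they do not state whether the libraries of a group are separate cultures. The p-values therefore speak only of the spread between these libraries, which may be technical. Cells with unreduced Sdc1, with no IFNγ or with an empty vector are not analysed here, so no uninduced level of an Ifit gene is given, and the reference in each line is its knockdown.

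IFIT proteins are built from tetratricopeptide repeats and act in the cytoplasm against viral RNA. IFIT1 binds the 5′ end of RNAs whose cap lacks methylation of the first ribose and keeps them from being translated. IFIT2 and IFIT3 bind RNA or partner proteins of the family, and in human cells IFIT3 stabilises IFIT1. Ifit3b is a mouse gene nearly identical to Ifit3. In most cells the family is silent until an interferon or a viral RNA sensor acts. Type I interferon works through ISGF3, a complex that contains STAT2 and IRF9 and binds the interferon-stimulated response element. IFNγ works mainly through another element, the gamma-activated sequence, and through the factor IRF1, which it induces.

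The upstream windows of Ifit1, Ifit3 and Ifit3b are shown because these genes had the larger differences in the comparisons and their windows hold the same motif. Each window runs from 250 bases before to 50 bases after the RefSeq transcript start, on the plus strand of GRCm38.p6, which is not the build of the counts. The windows are chr19:34640639-34640938 for Ifit1, chr19:34583279-34583578 for Ifit3 and chr19:34607707-34608006 for Ifit3b. Capitals mark matches to the core of the interferon-stimulated response element, searched as GAAA, any 2 bases and GAAA. All were on the opposite strand and so read here as TTTC, 2 bases and TTTC.
Ifit1: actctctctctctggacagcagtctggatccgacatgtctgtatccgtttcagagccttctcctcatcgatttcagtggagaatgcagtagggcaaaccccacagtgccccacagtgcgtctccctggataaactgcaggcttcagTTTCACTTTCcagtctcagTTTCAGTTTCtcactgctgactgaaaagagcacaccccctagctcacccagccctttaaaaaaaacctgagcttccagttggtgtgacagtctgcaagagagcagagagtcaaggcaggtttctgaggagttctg
Ifit3: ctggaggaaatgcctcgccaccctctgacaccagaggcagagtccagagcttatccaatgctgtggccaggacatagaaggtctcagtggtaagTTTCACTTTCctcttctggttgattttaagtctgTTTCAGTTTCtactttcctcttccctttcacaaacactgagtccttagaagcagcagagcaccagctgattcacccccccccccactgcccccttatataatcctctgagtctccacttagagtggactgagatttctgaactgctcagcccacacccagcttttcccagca
Ifit3b: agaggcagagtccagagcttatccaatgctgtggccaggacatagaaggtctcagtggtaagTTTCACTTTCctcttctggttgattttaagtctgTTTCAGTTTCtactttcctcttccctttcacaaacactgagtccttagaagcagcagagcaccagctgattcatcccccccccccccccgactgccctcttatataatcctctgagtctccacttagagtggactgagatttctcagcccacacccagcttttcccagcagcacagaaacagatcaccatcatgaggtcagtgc

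Each of these 3 windows held 2 matches to the core, searched on both strands. Of 32817 RefSeq windows of the same length, 3.43% held at least 1 match and 0.222%, or 73 windows, held 2 or more. The matches began 104 and 85 bases before the start in Ifit1, 156 and 122 bases before it in Ifit3, and 188 and 154 bases before it in Ifit3b. A longer form, the core followed by CT, matched at both places in Ifit1 and at 1 place each in Ifit3 and Ifit3b, and was held by 0.271% of all windows. Ifit3 and Ifit3b shared an identical run of 169 bases that covered both of their matches. Ifit2 had 2 RefSeq windows, and neither held the core. The gamma-activated core TTCNNNGAA, found in 8.29% of all windows, matched once in a window of Ifit2 and in none of the 3 windows printed. A match is a run of letters and not a measured binding site. The printed windows were chosen in part because they hold the core, so the shares of all windows are no test of them. Whether the matches have a part in the Ifit differences was not tested.

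**Figure D1:**
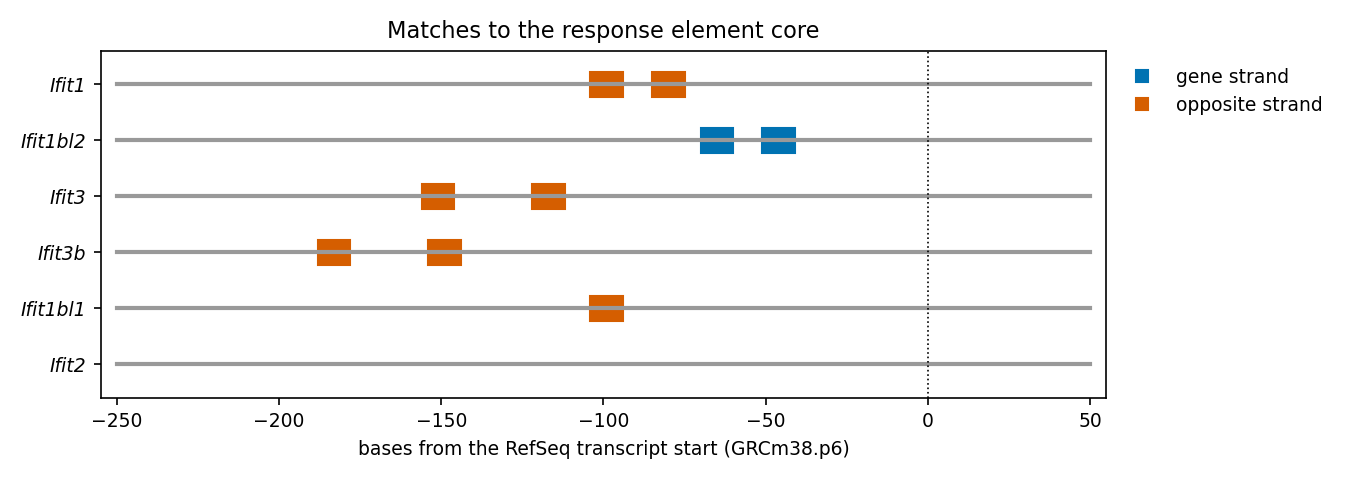
Positions of matches to the response element core in the RefSeq window of each Ifit gene and of the related genes Ifit1bl1 and Ifit1bl2, in bases from the transcript start (x axis); where a gene has 2 windows only the first is drawn. Colours give the strand relative to the gene. Ifit1, Ifit3, Ifit3b and Ifit1bl2 hold 2 matches each, Ifit1bl1 holds 1 and Ifit2 holds 0. The matches of Ifit1bl2 are the same sites as those of Ifit1, seen in overlapping windows that run opposite ways.

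In the reference annotation the family lies together in the order Ifit2, Ifit3, Ifit1bl1, Ifit3b, Ifit1bl2 and Ifit1, after Lipa and before Slc16a12. The window of Ifit1bl2, which runs the other way, shares 245 bases with that of Ifit1, and the matches of both genes are the same sites in that shared part. The longest annotated transcripts of Ifit3 and Ifit3b were 97.8% identical over 1700 aligned columns. Of the stretches of 100 bases in the Ifit3 transcript, 31.7% also occurred without a difference in Ifit3b, and 27.4% of those of Ifit3b occurred in Ifit3. No such stretch was shared between Ifit3 or Ifit3b and Ifit1 or Ifit2. The sources used here do not say how the counting treated reads that match several genes, so the split between Ifit3 and Ifit3b is uncertain. Their summed level in each library is given below. The fitted difference of the sum is given only for c30 and for ect against the knockdown. In the other comparisons the separate values of Ifit3 and Ifit3b carry this uncertainty.

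Total counts per library ranged from 11349447 to 15041133. Levels are in CPM, counts per 1000000 counts of the library, and a count of 0 allows up to 0.199 to 0.264 CPM, taking 3 counts as the limit. Sdc1 stood at 24.5 and 29.99 CPM in the MC38 knockdown libraries, at 97.0 and 99.5 CPM with c30, and at 22.4 and 25.2 CPM in the libraries labelled ect. It stood at 40.7 and 43.1 CPM in the B16 knockdown and at 71.1 and 56.9 CPM with wild-type Sdc1. The c30 libraries thus lay above the knockdown, while the libraries labelled ect overlapped it (−0.17 on the log2 scale, SE 0.10, edgeR adjusted p = 0.325), and a count per gene does not show which form a read came from. Melanocyte markers summed to 13296 to 14125 CPM in B16 and to 6.33 to 12.8 CPM in MC38. Each MC38 library had 3 or 4 of 11 colon epithelial markers at 1 CPM or more, and Epcam, Krt18, Krt19, Krt20, Cdx1, Cdx2 and Vil1 were below it in all of them. The sum of the leukocyte markers lay between 1.52 and 4.71 CPM in every library, with Cd3e, Cd8a and Ncr1 at 0.

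Ifit1, the cap-sensing member, gave 5.08 and 3.99 CPM in the MC38 knockdown, 1.498 and 2.70 CPM with c30, and 3.34 and 3.72 CPM in the libraries labelled ect. These levels rest on 17 to 70 counts per library. In B16 it gave 181 and 186 CPM in the knockdown and 154 and 157 CPM with wild-type Sdc1. The groups did not overlap: the knockdown was the highest group of each line, c30 the lowest of MC38, and every B16 library lay far above every MC38 library.

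Ifit2, an RNA-binding member that is linked to cell death in human cells, had the highest MC38 level of the family, also per kb of transcript. It gave 59.0 and 60.2 CPM in the MC38 knockdown, 48.6 and 48.1 CPM with c30, and 44.9 and 50.7 CPM in the libraries labelled ect. In B16 it gave 253.7 and 254.9 CPM in the knockdown and 215 and 232 CPM with wild-type Sdc1. The c30 libraries lay inside the range of the libraries labelled ect, and both groups lay below the knockdown without overlap.

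Ifit3, the partner of IFIT1 and IFIT2 in human cells, gave 13.5 and 11.6 CPM in the MC38 knockdown, 5.11 and 4.44 CPM with c30, and 6.76 and 6.38 CPM in the libraries labelled ect. In B16 it gave 501 and 473 CPM in the knockdown and 396 and 383 CPM with wild-type Sdc1. All 5 groups were separate, in the same order as for Ifit1.

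Ifit3b, the copy of Ifit3, was the scarcest member in every MC38 library, also per kb of transcript. It gave 2.76 and 1.51 CPM in the MC38 knockdown, 0.441 and 0.783 CPM with c30, and 0.791 and 1.06 CPM in the libraries labelled ect. Its 5 counts in c30 replicate 1 carry an exact 95% Poisson interval of 0.143 to 1.03 CPM, and its 9 counts in c30 replicate 2 carry one of 0.358 to 1.49 CPM. These intervals cover counting error only. In B16 it gave 121.1 and 121.2 CPM in the knockdown and 109 and 110.2 CPM with wild-type Sdc1. Summed with Ifit3, the level was 16.3 and 13.1 CPM in the MC38 knockdown and 5.55 and 5.22 CPM with c30. In the libraries labelled ect the sum was 7.55 and 7.45 CPM. In B16 it was 622 and 595 CPM in the knockdown and 505 and 494 CPM with wild-type Sdc1. The group order of Ifit3b was that of Ifit1 and Ifit3. In all 3 genes the library values of c30 and of the libraries labelled ect did not overlap. Their counting intervals did overlap in Ifit3 and Ifit3b. In Ifit1 the interval of c30 replicate 1 (0.873 to 2.40 CPM) lay below that of ect replicate 2 (2.81 to 4.83 CPM), and the others overlapped.

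**Figure D2:**
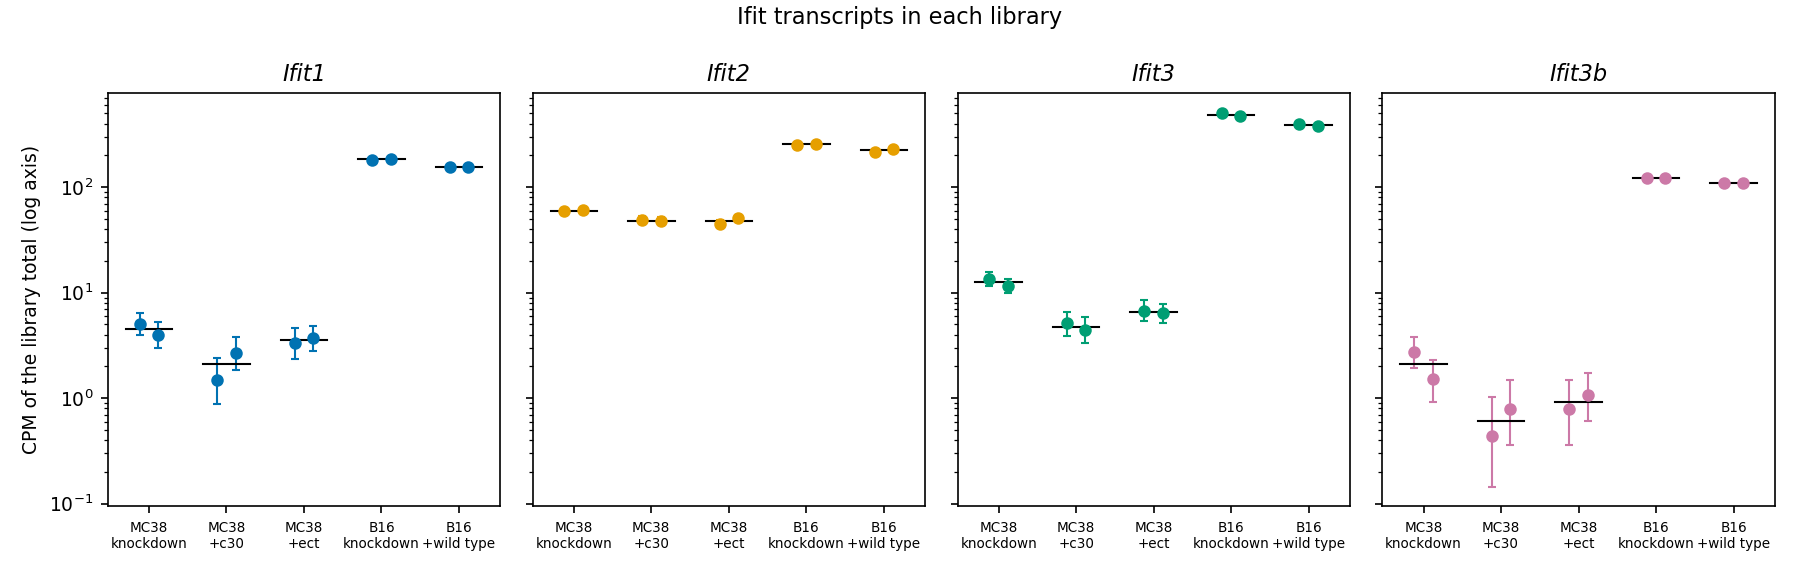
Level of each Ifit gene in each of the 10 libraries in CPM of the library total (log axis); points are libraries with exact 95% Poisson intervals for counting error and lines are group means. Ifit1, Ifit3 and Ifit3b lie much higher in B16 than in MC38, and Ifit2, at 44.9 to 60.2 CPM in MC38, shows the smallest gap.

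Summed over the 4 genes, the family made up 80.4 and 77.3 CPM in the MC38 knockdown, 55.7 and 56.0 CPM with c30, and 55.8 and 61.9 CPM in the libraries labelled ect. In B16 the sum was 1057 and 1036 CPM in the knockdown and 874 and 882 CPM with wild-type Sdc1. Every group given a form of Sdc1 thus lay below the knockdown of its line in the summed level.

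The make-up of the sum differed between the lines. On a scale of CPM per kb of the longest annotated transcript, Ifit2 took 58.4% to 77.4% of the family in MC38 and 13.8% to 15.4% in B16. Ifit3 took 15.4% to 29.2% in MC38 and 55.7% to 59.6% in B16. Ifit1 took 3.43% to 7.43% in MC38 and 14.1% to 14.97% in B16, and Ifit3b took 1.34% to 5.21% in MC38 and 12.6% to 14.0% in B16. Ifit2 was thus the leading member in all 6 MC38 libraries and Ifit3 in all 4 B16 libraries.

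The share of Ifit2 did not overlap between the MC38 groups either. That of Ifit1 did, with 6.32% and 5.17% of the counts in the knockdown and 5.98% and 6.02% in the libraries labelled ect. On the scale of counts, Ifit2 took 73.4% of the family in knockdown replicate 1, with an exact 95% binomial interval of 70.7% to 76.0%, and 77.9% in replicate 2 (75.2% to 80.4%). It took 87.3% in c30 replicate 1 (84.5% to 89.8%) and 85.8% in c30 replicate 2 (82.9% to 88.5%). The libraries labelled ect lay between, at 80.5% (77.2% to 83.5%) and 82.0% (79.3% to 84.4%). These intervals cover counting error only and not the spread between cultures. The counts of Ifit3 per count of Ifit2 were 0.229 and 0.193 in the knockdown, 0.105 and 0.0924 with c30, and 0.151 and 0.126 in the libraries labelled ect. Since this ratio is taken within a library, it does not depend on the library total.

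**Figure D3:**
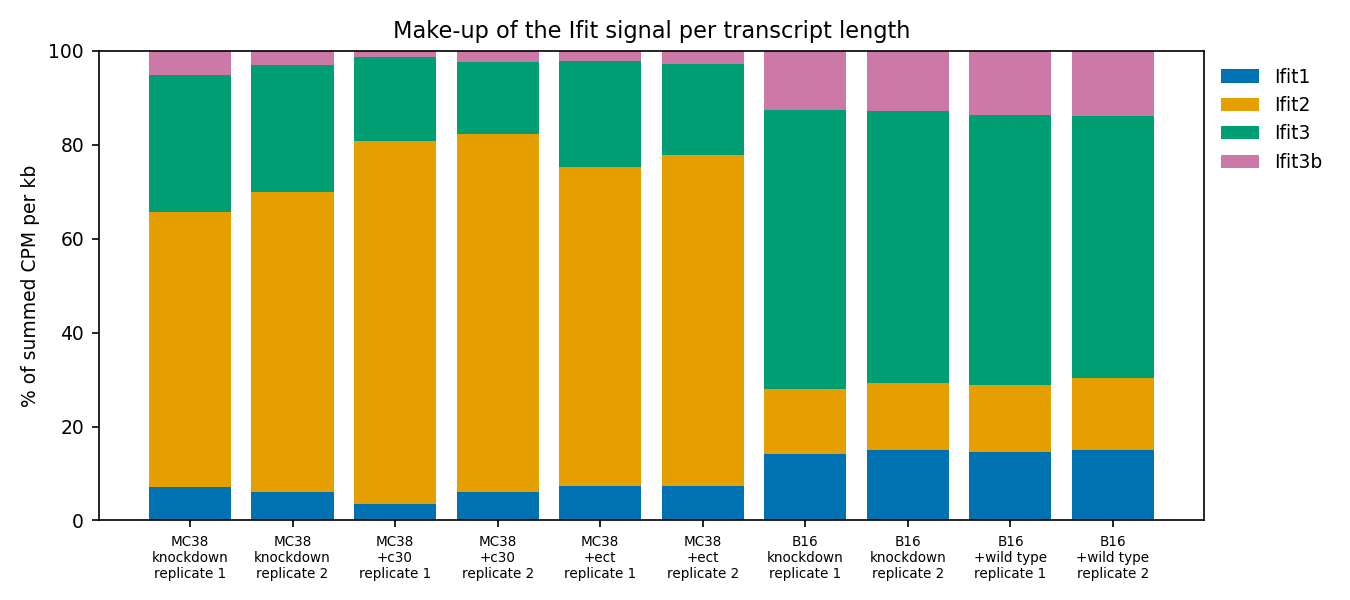
Share of each Ifit gene in the summed CPM per kb of transcript (y axis, %) for each library (x axis). Ifit2 takes 58.4% to 77.4% of the bar in MC38, most with c30, and Ifit3 takes 55.7% to 59.6% in B16.

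The first comparison asks what c30 did to the family in MC38. All 4 genes were lower with c30 than in the knockdown. Ifit3 was 2.62-fold lower, at 4.78 ± 0.474 CPM against 12.6 ± 1.34 CPM (SD, n = 2 and 2; log2 fold change −1.39, SE 0.20). Ifit3b had the largest fitted difference, −1.78 (SE 0.54), from 2.13 ± 0.885 to 0.612 ± 0.242 CPM. Ifit1 fell from 4.54 ± 0.769 to 2.10 ± 0.849 CPM, a log2 fold change of −1.10 (SE 0.31). Ifit2 had the smallest, −0.30 (SE 0.08), from 59.6 ± 0.845 to 48.3 ± 0.412 CPM. Counting Ifit3 and Ifit3b as 1 gene gave −1.44.

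Among 15031 genes tested in MC38, 17 had a log2 fold change as low as that of Ifit3b or lower, 56 as low as Ifit3, 122 as low as Ifit1 and 1648 as low as Ifit2. All 4 members passed an adjusted p of 0.05 downward, against 4.45% of all genes tested, and in all 4 both c30 libraries lay below both knockdown libraries, against 24.8% of all genes. The call of Ifit3 held without any single library, with log2 fold changes of −1.498 to −1.28 over all settings tried. The other 3 lost it in some settings. Ifit1 lost it without knockdown replicate 1 (−0.92) or c30 replicate 1 (−0.74). Ifit2 lost it without knockdown replicate 2 or either c30 replicate, with DESeq2 and with all 10 libraries in 1 fit. Ifit3b lost it without knockdown replicate 1 or either c30 replicate, where its value moved between −2.27 and −1.28.

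Melanocyte transcripts were unevenly spread over the MC38 libraries. Replicate 2 of c30 held 59 counts of Dct and Tyrp1 together, or 0.0527% of the B16 level, and the other MC38 libraries held at most 11. At that share B16 RNA would bring 2.95 counts of Ifit3, 1.54 of Ifit2, 1.11 of Ifit1 and 0.733 of Ifit3b to c30 replicate 2, which held 51, 552, 31 and 9. The 7 endothelial and fibroblast markers, mostly Pdgfra and Pdgfrb, also moved with the groups. They summed to 143 and 152 CPM in the MC38 knockdown, 106 and 113 CPM with c30, and 109 and 102 CPM in the libraries labelled ect, with Kdr and Lum at or near 0. Their part in the Ifit differences was not tested.

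The second comparison sets the libraries labelled ect against the same knockdown libraries. All 4 genes were again lower. The log2 fold changes were −0.93 (SE 0.18) for Ifit3, −1.17 (SE 0.49) for Ifit3b, −0.35 (SE 0.28) for Ifit1 and −0.30 (SE 0.08) for Ifit2. Ifit3 stood at 6.57 ± 0.269 CPM, or 1.90-fold below the knockdown, and Ifit2 at 47.8 ± 4.13 CPM (SD, n = 2). Ifit3 and Ifit2 passed the threshold downward, against 4.61% of all genes tested. Ifit1 and Ifit3b did not, although in all 4 members the libraries did not overlap, against 25.9% of all genes that lay below in that way. Counting Ifit3 and Ifit3b as 1 gene gave −0.96, past the threshold. Ifit3 kept its call in every setting tried (−1.03 to −0.81), and Ifit2 lost it with DESeq2 and without knockdown replicate 2 or replicate 1 of the libraries labelled ect. Sdc1 itself was no higher in these libraries than in the knockdown, so a direction here belongs to the label and not to a measured return of the transcript.

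The third comparison sets c30 directly against the libraries labelled ect. The log2 fold changes were −0.76 (SE 0.32) for Ifit1, −0.46 (SE 0.21) for Ifit3 and −0.61 (SE 0.60) for Ifit3b, and 0.00 (SE 0.08) for Ifit2. In the first 3 genes both c30 libraries lay below both others, as in 17.3% of all genes, and in Ifit2 the libraries overlapped. None of the 4 passed the threshold, which 45 of 15031 genes (0.299%) did. Leaving out 1 library moved that number between 18, without c30 replicate 2, and 97, without knockdown replicate 2, and no member passed in any of these settings. The first 2 comparisons share their knockdown libraries, so their common direction is not independent. The knockdown enters c30 against ect only through the filter on low counts, the normalisation and the estimate of the spread.

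In B16 the comparison asks what wild-type Sdc1 did to the family. All 4 genes were lower with wild-type Sdc1, by less on the log2 scale than in MC38 with c30. In CPM the falls were larger than in MC38, from higher levels. Ifit3 stood at 390 ± 8.77 CPM against 487 ± 19.8 CPM in the knockdown (SD, n = 2 and 2; log2 fold change −0.30, SE 0.08). Ifit1 stood at 155 ± 1.67 against 184 ± 3.90 CPM (−0.21, SE 0.08), Ifit2 at 223 ± 11.97 against 254 ± 0.878 CPM (−0.16, SE 0.08) and Ifit3b at 109.6 ± 0.831 against 121 ± 0.0883 CPM (−0.12, SE 0.08). In each of the 4 both wild-type libraries lay below both knockdown libraries, as in 21.1% of all genes tested. None passed the threshold. Sdc1 did not pass it either, with 71.1 and 56.9 CPM in the wild-type libraries against 40.7 and 43.1 CPM in the knockdown.

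In that comparison 0 of 14336 genes (0.0%) passed with edgeR, 791 had an unadjusted p under 0.05, and DESeq2 called 10. The number depended on the wild-type libraries: it was 1295 without wild-type replicate 1 and 326 without wild-type replicate 2. Ifit1 and Ifit3 passed in both of these settings, at −0.20 and −0.31 without replicate 1 and at −0.23 and −0.28 without replicate 2, and Ifit2 passed without replicate 2 (−0.23). In each such fit the remaining wild-type library was taken to vary like the knockdown libraries.

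**Figure D4:**
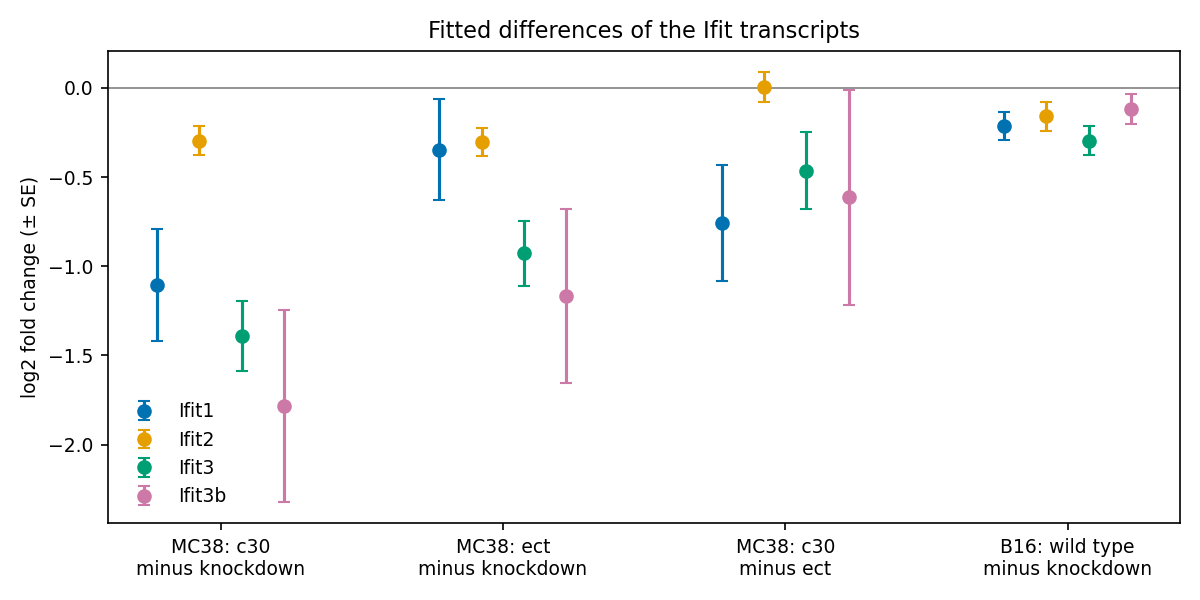
Fitted log2 fold change ± SE (y axis) of each Ifit gene in the 4 comparisons within a line (x axis). Ifit1, Ifit3 and Ifit3b lie well below Ifit2 with c30, and in B16 the 4 genes lie between −0.30 and −0.12.

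The difference between the B16 and MC38 effects was fitted over all 10 libraries, with the reservation that the lines received different forms of Sdc1. The B16 effect minus the c30 effect was 1.09 (SE 0.15) for Ifit3, 1.66 (SE 0.40) for Ifit3b, 0.89 (SE 0.25) for Ifit1 and 0.13 (SE 0.10) for Ifit2 on the log2 scale. Ifit3 passed the threshold, which 0.284% of 16877 genes did in either direction, and as its values chose it this is a description only. For the libraries labelled ect the same differences were 0.63 (SE 0.14), 1.04 (SE 0.34), 0.13 (SE 0.21) and 0.14 (SE 0.10), with Ifit3 passing, as 0.486% of genes did. Ifit3 kept the first of these calls in every setting tried (0.98 to 1.198). It lost the second in 8 settings that each left out 1 library, any of the 6 of MC38 or either of the B16 knockdown (0.51 to 0.73).

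Between the knockdowns of the lines, the family was far higher in B16. The log2 fold change of B16 over MC38 was 5.86 (SE 0.15) for Ifit3b, 5.37 (SE 0.12) for Ifit1, 5.32 (SE 0.09) for Ifit3 and 2.13 (SE 0.07) for Ifit2. Ifit3 was 39.9-fold higher in B16, Ifit1 41.4-fold, Ifit3b 57.9-fold and Ifit2 4.39-fold. All 4 passed upward, against 33.8% of all genes, in a comparison in which 68.2% of 16877 genes passed in either direction. The lines differ in tissue of origin, and cell line and anything else that differed between the cultures cannot be told apart.

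Ifit1bl1 and Ifit1bl2, related genes of the same locus, were scarce. They held 1 to 10 counts per library in MC38, too few for the test there, and 1.28 to 3.13 CPM in B16. Both were higher in the B16 than in the MC38 knockdown, by 2.64 (SE 0.69, edgeR adjusted p = 0.00133) and 2.95 (SE 0.51, adjusted p = 1.06e-05) on the log2 scale. Of 8 genes flanking the cluster 5 were tested in MC38, with a median log2 fold change of −0.24 with c30 and 4 of them below 0. The threshold was passed by 1, where 4.45% of all genes passed downward. It was Pank1, a pantothenate kinase (14.2 ± 2.03 to 9.94 ± 0.473 CPM, −0.51 on the log2 scale, SE 0.16, edgeR adjusted p = 0.0304). None was called in the libraries labelled ect or in B16. Lipa, the lysosomal acid lipase gene next to Ifit2, was higher in the B16 knockdown by 1.69 (SE 0.08, adjusted p = 3.03e-17). Stambpl1 went the other way, with 14.4 ± 0.538 CPM in the MC38 knockdown and 0 counts in either B16 knockdown library.

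The signals that induce the family were read next. Of 11 type I and III interferon genes, 9 had no count in any library. Ifnb1, which encodes interferon beta, reached at most 0.352 CPM, in c30 replicate 1, and was at 0 in all B16 libraries. Ifnk reached 0.0792 CPM in 1 library of B16 with wild-type Sdc1. Apart from that Ifnb1 value, these levels lay under the limit that a count of 0 allows.

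Of 18 interferon receptors, ISGF3 subunits and regulators tested, 3 were lower with c30 and 0 higher, with a median log2 fold change of −0.13 against 0.00 over all genes. Over all genes 7.75% passed with c30 in either direction and 8.16% in the libraries labelled ect. They were Stat2, an ISGF3 subunit (142 ± 1.76 to 116 ± 8.35 CPM, −0.29, SE 0.06, edgeR adjusted p = 0.000161), Irf7, an interferon regulatory factor (−0.70, SE 0.17, adjusted p = 0.00355), and Irf1 (−0.17, SE 0.04, adjusted p = 0.00538). Irf9, an ISGF3 subunit as well, did not pass (−0.04, SE 0.08, edgeR adjusted p = 0.855). In the libraries labelled ect, Stat2 (−0.19, SE 0.06, adjusted p = 0.0202) and Irf7 (−0.52, SE 0.17, adjusted p = 0.0327) were lower. Socs1, a feedback inhibitor of JAK kinases, was higher there (0.58, SE 0.12, adjusted p = 0.000348), and with c30 it gave 0.36 without passing. In the libraries labelled ect Irf1 and Irf9 gave −0.08 and −0.04 without passing. In B16 none of the 18 passed. Irf7 gave −0.37 (SE 0.14, adjusted p = 0.877), Stat2 −0.14 (SE 0.08, adjusted p = 0.901), and Irf1 and Irf9 gave −0.05 and 0.05.

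Between the lines 33.8% of all genes were higher in B16, and 68.2% passed in either direction. Of the 18, 11 were higher and 4 lower in B16, with a median of 0.59. Among the higher were Stat2, by 1.79 (SE 0.07, edgeR adjusted p = 1.96e-19), and Irf9, by 0.64 (SE 0.09, adjusted p = 1.82e-07). Usp18, a negative regulator of the type I receptor, was higher by 3.48 (SE 0.14, adjusted p = 3.04e-18). Irf8 (−4.26, SE 0.21) and Ifngr1, a subunit of the IFNγ receptor (−1.32, SE 0.11), were lower in B16. The gaps of Ifit1, Ifit3 and Ifit3b between the lines were larger than that of any gene of this list.

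The list of other antiviral effectors was chosen with earlier results of these data known, so its numbers of calls are a description and no test. Of its 35 genes, 34 were tested in MC38. With c30, where 4.45% of all genes were lower, 15 were lower and 0 higher. Their median was −0.30 against 0.00 over all genes. Those with the smallest adjusted p were Samhd1, a nucleotide triphosphate hydrolase (481 ± 3.42 to 378 ± 6.997 CPM, −0.34, SE 0.04, edgeR adjusted p = 3.96e-09), Oas3, an oligoadenylate synthetase (−0.71, SE 0.11, adjusted p = 4.16e-07), Parp9 (−0.34, SE 0.06, adjusted p = 1.86e-05) and Oasl2 (−0.53, SE 0.10, adjusted p = 4.75e-05). The count was 8 without c30 replicate 1 and 9 without c30 replicate 2. In the libraries labelled ect, where 4.61% of all genes were lower, 9 were lower and 0 higher, with a median of −0.17. They were led by Samhd1 (−0.23, SE 0.04, adjusted p = 5.23e-05), Dtx3l (−0.32, SE 0.06, adjusted p = 0.000128), Parp9 (−0.28, SE 0.06, adjusted p = 0.000298) and Samd9l (−0.44, SE 0.09, adjusted p = 0.000366). In c30 against the libraries labelled ect and in B16 none passed, with medians of −0.10 and −0.11.

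Oas2 had the lowest log2 fold change of this list with c30, −1.71 (SE 0.52, edgeR adjusted p = 0.0273), from 2.03 ± 0.522 to 0.613 ± 0.119 CPM. Several effectors that are strongly induced in other cells were near the floor in MC38, such as Rsad2, the gene of viperin, at 1.04 ± 0.132 CPM in the knockdown and 0.527 ± 0.376 CPM with c30 (adjusted p = 0.441). Between the lines 29 of the 34 were higher in B16 and 5 lower, with a median of 1.97. Over all genes 33.8% were higher and 68.2% passed in either direction. Rsad2 was higher by 7.61 (SE 0.16, adjusted p = 4.45e-25), Cmpk2, its neighbour in the genome, by 6.23 (SE 0.16, adjusted p = 9.98e-23) and Mx1, a dynamin-like GTPase, by 5.28 (SE 0.14, adjusted p = 1.02e-22). Apobec3, a cytidine deaminase, was lower in B16 (−5.84, SE 0.14, adjusted p = 8.82e-24), as were Samhd1 (−0.79, SE 0.06) and Oas3 (−0.61, SE 0.11).

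Sensors and adaptors lead from viral nucleic acid to interferon and to Ifit genes. Of 14 tested, 1 was lower with c30, where 4.45% of all genes were, Zbp1, a sensor of Z-form nucleic acid (41.1 ± 1.56 to 27.9 ± 2.73 CPM, −0.55, SE 0.10, edgeR adjusted p = 7.47e-05). In the libraries labelled ect, where 4.61% of all genes were lower, so were 2 of the 14, Zbp1 (−0.36, SE 0.10, adjusted p = 0.0112) and Sting1 (−0.30, SE 0.09, adjusted p = 0.0177). The medians were −0.10 and −0.13, and in B16 none passed. Between the lines 12 of 14 were higher in B16 and 1 lower, with a median of 1.19. Over all genes 33.8% were higher and 68.2% passed in either direction. The list was led by Zbp1 (3.39, SE 0.09) and Dhx58 (3.31, SE 0.13), and Mavs was the lower one (−1.04, SE 0.08).

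IFIT1 reads the cap and IFIT proteins bind initiation factor eIF3, so the cap-forming enzymes and eIF3 subunits were read as well. Of 20 tested, 1 passed with c30 and 1 in the libraries labelled ect, near the shares of 7.75% and 8.16% over all genes. Eif3g was higher with c30 (0.25, SE 0.06, edgeR adjusted p = 0.00199) and Eif3e was lower in the libraries labelled ect (−0.15, SE 0.05, adjusted p = 0.0367). The medians were 0.03 and 0.01, and in B16 none passed, with a median of 0.05. Between the lines 68.2% of all genes passed in either direction. Of the 20, 6 were lower and 2 higher in B16, with a median of −0.08. Cmtr2, which methylates the second ribose after the cap, was the lowest (48.7 ± 2.59 to 16.6 ± 1.34 CPM, −1.51, SE 0.11, adjusted p = 2.63e-12).

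**Figure D5:**
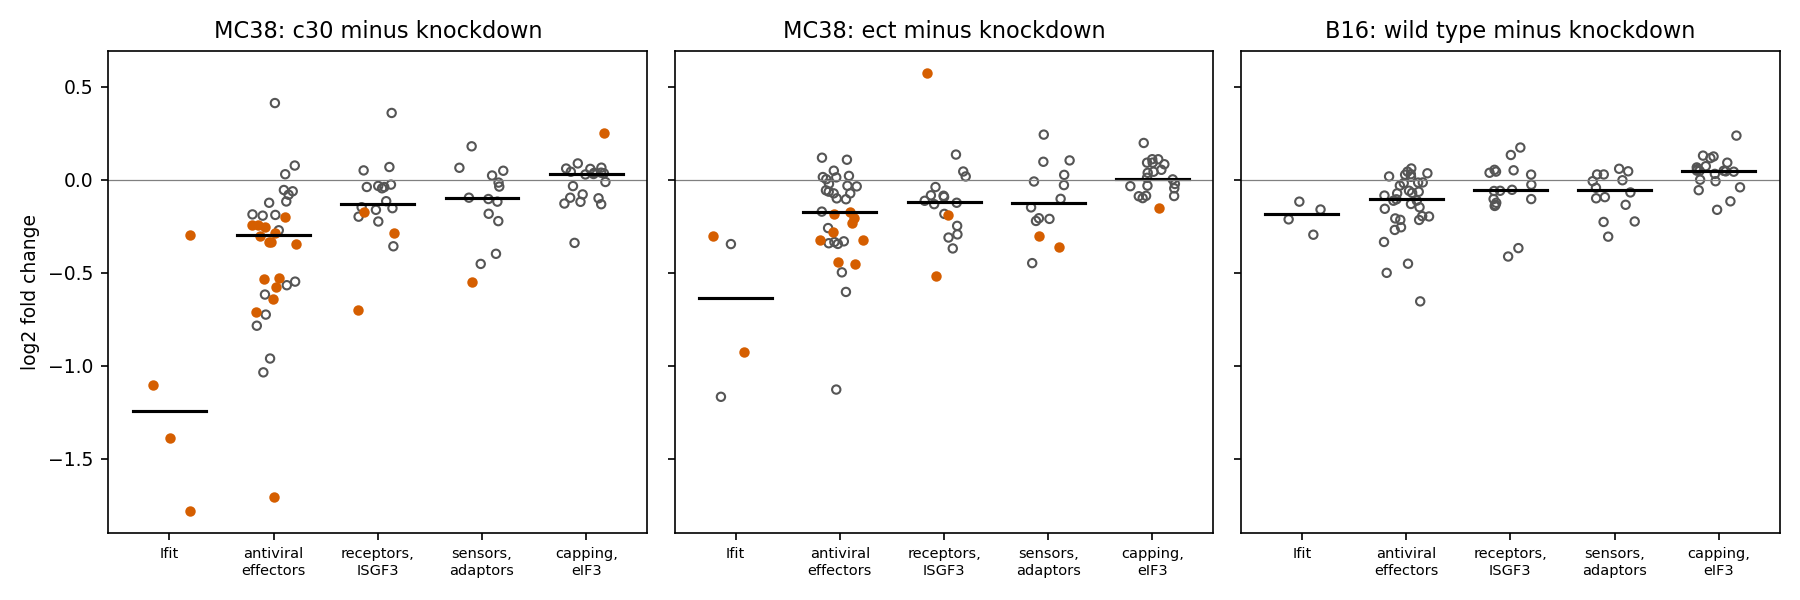
Log2 fold change (y axis) of the Ifit genes and of the listed genes around them (x axis) in c30, ect and wild-type Sdc1 against the knockdown of the same line; filled points passed an adjusted p of 0.05 and lines are list medians. With c30 the antiviral effectors have a median of −0.30 and the cap-forming enzymes and eIF3 subunits one of 0.03; the Ifit genes were chosen with these contrasts known.

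Genes whose profile over the libraries was most like that of a member were named by the root mean square difference between log2 profiles, each centred on its mean. Over all 10 libraries and 10198 genes, the nearest to Ifit1 was Oas2, at 0.211, where the spread of Ifit1 itself was 2.83. Mx1 was also among the 5 nearest, with Atp9a, Dnah7b and Angpt2. The nearest to Ifit2 were Phf11d at 0.0836 and Parp14 at 0.100, followed by Ugp2, Hexa and St3gal1. The nearest to Ifit3 was Zdhhc15 at 0.252, followed by Atp9a, Plch1, Oas2 and Mx1. Ifit3b was nearest to Plch1 at 0.245, then Nr1h4, Phactr1, Gxylt2 and Plekhg1. These profiles are governed by the gap between the lines, which all 10 libraries share.

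Within the 6 MC38 libraries and 9879 genes, the neighbours were others. Ifit1 was nearest to Sp110 at 0.209, then Ccdc80, S1pr1, Prelp and C4b, against a spread of its own of 0.526. Ifit2 was nearest to Pnpla8 at 0.0242 and Dtx3l at 0.0299, then Ift140, Amigo2 and B3gnt3, against a spread of 0.150. Ifit3 was nearest to Aldh3a1 at 0.177, then Slurp1, Serpinb1a, Hpse and Fam43a, against 0.572. Ifit3b, with the fewest counts, was nearest to Cemip at 0.345, then Aldh3a1, Casp1, Ccdc80 and Sned1, against 0.719. No member of the family had a gene among its 5 nearest in MC38 that it also had over all 10 libraries.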

How the data were processed

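RNA was made into messenger RNA libraries and sequenced from both ends, per the labels' protocols. The authors deposited raw counts, 1 per gene and library. The submitters' processing notes name DESeq2, featureCounts, HTSeq, HISAT2 2.0.5, Trimmomatic and the build GRCm39, without order or annotation. All columns were used. Symbols were matched by Ensembl identifier to GENCODE M21 for 51884 of 60676 rows. CPM is computed on library totals. The test was that of edgeR 4.0.16 under R 4.3.3 (filterByExpr, TMM, robust quasi-likelihood test, 2-sided), with Benjamini-Hochberg adjustment over all genes tested and a threshold of 0.05. The SE given for a log2 fold change is its absolute value divided by the square root of the F statistic of this test. The MC38 comparisons shared a fit of 6 libraries, B16 used 4, and the lines and the differences of effects used all 10. edgeR's common coefficient of biological variation came to 4.84% in MC38 and 8.68% in B16. The members and gene lists were chosen with earlier results of these data known. Named genes were the members, Sdc1, Ifit1bl1 and Ifit1bl2, up to 4 called genes per list with the smallest adjusted p, Stat2, Irf9, Irf1 and Irf7, and the 5 nearest profiles per member among genes with a mean of at least 5 CPM. Of the genes that this rule takes, 1 is not reported here. Other genes named were chosen after their values were seen: Ifngr1, Mavs, Samhd1 and Oas3 between the lines, and Rsad2 and Oas2 in MC38. Alternatives were RLE size factors, other filters, DESeq2 1.42.0, a replicate block, other sets of libraries, leaving out each library and summing Ifit3 with Ifit3b. The tests were tried on simulated counts. For B16 wild-type Sdc1 against knockdown, 0% of 50 genes changed 1.2-fold and 56% of 50 changed 1.5-fold were recovered, with 20 false calls. For c30 against knockdown these shares were 14% and 60%, with 7 false calls. Promoter windows are from RefSeq (GRCm38.p6), with all 4 members matched by symbol. Figures were drawn with matplotlib 3.10.9.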

Additional observations from a re-analysis of the deposited data

Results flagged for a closer look

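Ifit3 differed in its response between the lines. The B16 effect of wild-type Sdc1 minus the MC38 effect of c30 was 1.09 on the log2 scale (SE 0.15), and minus that of the libraries labelled ect it was 0.63 (SE 0.14). Both come from a term for the difference itself, fitted over 10 libraries, and both are descriptions, because the gene was chosen with its values known. Sdc1 differed as well. Its B16 effect minus its c30 effect was −1.22 (SE 0.15, edgeR adjusted p = 0.000143). Its B16 effect minus that of the libraries labelled ect, where Sdc1 was no higher than in the knockdown, was 0.81 (SE 0.16, edgeR adjusted p = 0.0161). The lines received different forms of Sdc1, so line and form cannot be told apart. Groups of 2 libraries are too small for a test of single outlying libraries.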

How the results depend on the processing

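No difference of an Ifit gene that passed the threshold changed sign in any of the settings tried. Of 385 values of the members under alternatives, 347 kept their side of the threshold, 21 no longer passed and 17 passed that had not. Among the 347, values that had not passed changed sign in Ifit2 for c30 against ect, from 0.00 to −0.07 without ect replicate 1, and in Ifit1 for B16 minus ect, from 0.13 to −0.06 without MC38 knockdown replicate 1. The cause of the changes below was not tested. With all 10 libraries in 1 fit, 254 genes were called for c30 against 1165 in the fit reported, 249 for ect against 1227, 8 for c30 against ect (45 reported) and 27 in B16 (0 reported), and 7 and 4 antiviral effectors were called lower for c30 and ect (15 and 9 reported). DESeq2 called 519, 596, 15 and 10 genes in these comparisons, 9 and 5 antiviral effectors, and 75 genes for the difference between the B16 and c30 effects (48 reported). DESeq2 gave no adjusted p for Ifit1 and Ifit3b in c30. Without a filter on low counts, 42 genes were called in B16, 159 for the B16 minus c30 difference and 189 for the B16 minus ect difference (82 reported). With only the 4 libraries compared, 72 genes were called for c30 against ect. A filter at 5 CPM removed Ifit1 and Ifit3b from the MC38 fits, so they have no value there. Leaving out each library in turn gave 464 to 1245 genes for c30, 776 to 1080 for ect, 18 to 97 for c30 against ect, 3 to 1295 in B16, 13 to 1096 and 13 to 1170 for the differences of effects, and 8 to 16 and 7 to 8 antiviral effectors for c30 and ect. In MC38, Ifit1, Ifit3 and Ifit3b rest on 5 to 186 counts per library, which limits the precision of their fold changes.

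The replicate numbers were not shown to pair the libraries: with 2 pairs per comparison, the deviations of same-numbered libraries correlated at 0.04, −0.0046 and 0.02 among the MC38 groups and at −0.11 in B16. A fit with the replicate block called 1189 genes for c30, 1252 for ect, 55 for c30 against ect, 15 in B16, 11373 between the lines (11504 reported), and 35 and 57 for the differences of effects. The block with the B16 numbers crossed, chosen after seeing the data, called 5 genes in B16.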
